A study of Mus musculus with 30 samples.

Results

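Cells selected for resistance were compared with their parent without added drug: the 4 untreated resistant lines against 5 arrays of untreated parental cells. These are 9 of the 30 arrays of the series. The members were taken from the sample titles: lines R100, R500, R1000 and R4000 at 0 nM, 1 array each, and the parental cultures at 0 h, labelled as biological replicates 1 to 5. Both sides were B cells of a C57BL/6J mouse lymphoma that carried the Eµ-Myc transgene, in which a B-lineage enhancer drives Myc, and lacked Cdkn2a (Cdkn2a-/-). Both were grown on irradiated Cdkn2a-/- mouse embryonic fibroblasts. The lines had been taken at selection doses of 100, 500, 1000 and 4000 nM mafosfamide, a form of cyclophosphamide that is active in culture. The labels do not say how long they had grown without drug before the untreated arrays. The study describes the isolates as clones taken at successive steps of 1 dose escalation. They are therefore related to each other, and what all of them share may have arisen once. For a second look, treated cells were used: 1 array each of R4000, R1000 and R500 exposed to 750 nM mafosfamide for 24 h, and 5 parental arrays with the same exposure. Each line counted as 1 replicate, and single lines are described without a test. All p-values measure the spread between cultures of 1 lymphoma, not between mice.

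Mafosfamide is an alkylating agent: its active form joins the strands of DNA, and the cell must repair the links, stop dividing or die. Resistance to such drugs is known to involve detoxifying enzymes such as aldehyde dehydrogenases, efflux pumps, DNA repair, and a raised threshold for apoptosis. Loss of Cdkn2a removes p19ARF, which otherwise restrains Mdm2 and so activates p53 when Myc is high, and Myc itself drives growth through genes of ribosome production and metabolism that the Mxd proteins repress.

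B-cell markers were high on every array. The B-cell genes Cd79a and Cd79b stood between 13.23 and 13.74 on the log2 scale on all 9 arrays, and the defining markers of other blood cells (Cd3e, Cd3g and Cd8a of T cells, Lyz2, Csf1r and Itgam of myeloid cells, Klf1 of erythroid cells) between 5.42 and 8.27. Over whole lists, the mean of 19 T and NK cell genes was 6.64 to 6.89 in parental cells and 6.62 to 6.72 in the lines, that of 20 myeloid genes 6.89 to 7.22 against 6.93 to 7.11, and that of 7 erythroid genes 7.70 to 7.94 against 7.70 to 7.81. Cd2 and Tfrc, which B cells can also express, were the brightest members of these lists at parental means of 11.17 and 11.93. The mean of 28 fibroblast genes, which could come from the feeder cells, was 8.11 to 8.65 in parental cells and 8.31 to 8.50 in the lines, so the groups overlapped. Cdkn2a, deleted in all of these cells, stood at 7.37 ± 0.09 (SD, n = 5) in parental cells and at 7.55, 7.62, 7.12 and 7.46 in R100, R500, R1000 and R4000. Myc was high on both sides, at 13.13 ± 0.10 (SD, n = 5) against 13.24, 13.10, 13.19 and 13.16 in the lines. Parental replicate 5 had a narrower spread of values than the other 8 arrays, with an interquartile range of 3.07 against 3.34 to 3.58. Lines resembled each other more than parental cultures did. Over all genes, the SD of the difference between a pair of arrays was 0.16 to 0.25 among the lines, 0.23 to 0.51 among the parental arrays and 0.21 to 0.48 between a line and a parental array. Among the parental arrays, each line was closest to replicate 2, 3 or 4. R4000 was closer to parental replicates 1, 2 and 4 (0.217, 0.215 and 0.213) than to R100 (0.247).

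Of 19937 genes, 15 passed the test (limma, adjusted p below 0.05), 4 higher and 11 lower in the lines. These are 0.0201% and 0.0552% of all genes tested. Btg2, Mxd4 and Ccng2 had the largest falls, and Bex6 and Gadd45b the largest rises. Of the 15 genes, 2 rises and 2 falls were at least 2-fold. For each of them, all 4 lines lay outside the range of the parental arrays, which held for 463 genes on the higher side (2.32% of all) and 265 on the lower side (1.33%). The calls rested on the whole set of arrays: 0 genes passed without parental replicate 4, without R500 or without R1000, where 1664, 956 and 864 genes had an unadjusted p below 0.05 (limma), against 1415 with all arrays. The count was 2 without R100, 9 without R4000 and 4 without parental replicate 3, and it was 24 and 23 without parental replicates 1 and 2. After arrays were centred on their medians, 5 genes passed, 2 higher and 3 lower. With array weights 100 genes passed, and with all 30 arrays in the fit 206 did, so the number of genes that separate lines from parental cells is not settled by these arrays.

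Btg2, an antiproliferative protein that p53 induces and that promotes the decay of mRNA, had the largest fall among the genes that passed the test. Its level on parental arrays 1 to 5 was 12.34, 12.43, 12.52, 12.65 and 12.73, and 10.96, 11.42, 11.22 and 11.65 in R100, R500, R1000 and R4000. All lines lay below all parental arrays, R100 the lowest and R4000 the nearest. The fall was 2.33-fold (log2 difference -1.22, SE 0.13, adjusted p = 0.0155 by limma). Ccng2, an atypical cyclin whose level is high in resting cells, read 10.40, 9.94, 10.35, 10.27 and 10.24 in parental cells and 9.10, 9.38, 9.12 and 9.43 in the lines. Here too the groups did not overlap, with R100 and R1000 lowest, and the fall was 1.98-fold (difference -0.98, SE 0.11, adjusted p = 0.0166).

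Mxd4 pairs with Max and represses genes that Myc activates. It stood at 10.87, 10.49, 10.21, 10.43 and 10.44 in parental cells and at 9.30, 9.62, 9.32 and 9.68 in the lines, again without overlap and with R100 and R1000 lowest. It fell 2.00-fold (SE 0.13 on the log2 scale, adjusted p = 0.0298). Hbp1, an HMG-box repressor of cell-cycle genes, read 9.74 to 10.25 in parental cells and 9.16, 9.13, 9.06 and 9.27 in the lines, and it fell by 0.82 on the log2 scale (SE 0.11, adjusted p = 0.0262). Its 4 lines lay close together, below all parental values. Ddit4, an inhibitor of the growth kinase mTORC1 that stress induces, read 10.30 to 10.91 in parental cells and 9.49, 9.79, 9.69 and 9.82 in the lines (difference -0.89, SE 0.13, adjusted p = 0.0413). Trp53inp1, a p53-induced stress protein, read 10.91 to 11.26 against 10.36, 10.33, 10.16 and 10.49 (difference -0.78, SE 0.10, adjusted p = 0.0262). Neither gene's groups overlapped.

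The other 5 falls were smaller or concerned genes of other kinds. Zfp691, which encodes a zinc finger protein, read 9.41 to 9.93 in parental cells and 8.79, 8.82, 8.81 and 9.02 in the lines (difference -0.87, adjusted p = 0.0406). H2ax, the histone variant that is phosphorylated beside DNA breaks, read 11.17 to 11.38 in parental cells and 10.70, 10.73, 10.78 and 10.91 in the lines (difference -0.53, SE 0.08, adjusted p = 0.0446). Ifngr2, a chain of the interferon gamma receptor, and Cerk, which phosphorylates ceramide, fell by 0.60 and 0.56 on the log2 scale (adjusted p = 0.0446 each). Atp5md, a small subunit of mitochondrial ATP synthase, fell by 0.60 (adjusted p = 0.0406), and its other probe sets, which were not used in the test, differed by -0.44 and -0.40.

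Bex6, a member of the Bex family of small proteins, had the largest rise that passed the test. It read 8.23, 8.17, 7.34, 7.91 and 6.99 on parental arrays 1 to 5 and 9.49, 9.37, 9.47 and 9.20 in R100, R500, R1000 and R4000. The lines lay close together and above all parental arrays, which themselves spread over more than a log2 unit with replicates 3 and 5 lowest. The rise was 3.15-fold (difference 1.66, SE 0.23, adjusted p = 0.0376). Gadd45b, a stress-induced protein that acts on MAP kinase signalling and that NF-kB can induce, read 9.998, 10.12, 10.16, 10.05 and 9.77 in parental cells and 11.34, 11.47, 11.65 and 10.97 in the lines. R1000 was highest and R4000 nearest to the parental arrays, none of which overlapped the lines. It rose 2.53-fold (difference 1.34, SE 0.13, adjusted p = 0.0117).

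The other rises were small RNAs. Vaultrc5, the RNA component of the vault particle, read 6.64 to 7.13 in parental cells and 7.75, 8.06, 7.88 and 7.75 in the lines (1.93-fold, adjusted p = 0.0166). Snora73b, an H/ACA box small nucleolar RNA, read 10.80 to 11.27 against 11.73, 11.72, 11.73 and 11.64 (1.57-fold, adjusted p = 0.0446). Both had lines above all parental arrays. Small nucleolar RNAs are processed from introns of longer transcripts, which the probes cannot tell from the finished RNA. Of the 53 small nucleolar RNA genes on the array, 48 lay above 0 with a median difference of 0.26, and 9 had all lines above all parental arrays, against 2.32% of all genes. Their mean level was 9.09 to 9.67 on the parental arrays and 9.87, 9.63, 9.75 and 9.76 in R100, R500, R1000 and R4000, so R500 fell within the parental range. Over all 19937 genes the median difference was -0.01 and 9576 genes (48.0%) lay above 0.

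**Figure D1:**
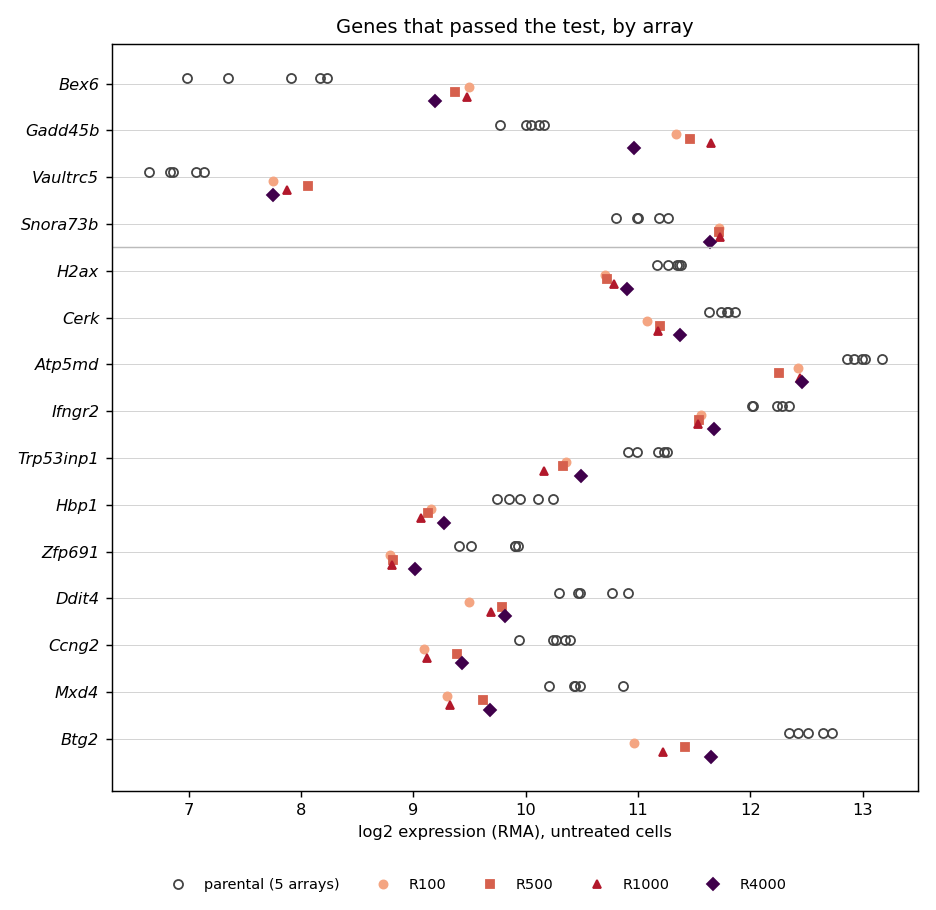
Log2 expression of the 15 genes that passed the test, one row per gene, with open circles for the 5 parental arrays and filled symbols for the 4 untreated lines. In each row the lines and the parental arrays do not overlap, and R4000 is the line nearest to the parental mean.

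The size of these differences did not follow the order of selection. In all 15 genes R4000, the line selected at the highest dose, lay nearest to the parental mean, and in none of them was it the farthest. R100 was farthest in 8, R1000 in 5 and R500 in 2. The median absolute difference over the 15 genes was 0.85 in R100, 0.85 in R500, 0.93 in R1000 and 0.72 in R4000. Among all 728 genes whose lines and parental arrays did not overlap, R4000 was nearest in 276, R100 in 206, R500 in 148 and R1000 in 98. When expression was fitted against rank, with parental cells first and R4000 last, 0 genes passed the test (limma; smallest adjusted p = 0.881), with 869 at an unadjusted p below 0.05. A slope among the 4 lines alone gave 0 genes as well (smallest adjusted p = 0.999), with 246 at an unadjusted p below 0.05.

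Promoters of 3 of these genes are shown because each held a sequence that was searched for: CACGTG, the E-box read by Myc and Mxd proteins, or TGACGTCA, a cyclic AMP response element. Windows run from 250 bases before to 50 bases after the start site (RefSeq, GRCm38.p6), and capitals mark the matches. Btg2 lies at chr1:134079106-134079405 on the minus strand, Mxd4 at chr5:34187661-34187960 on the minus strand and Gadd45b at chr10:80929841-80930140 on the plus strand.
Btg2: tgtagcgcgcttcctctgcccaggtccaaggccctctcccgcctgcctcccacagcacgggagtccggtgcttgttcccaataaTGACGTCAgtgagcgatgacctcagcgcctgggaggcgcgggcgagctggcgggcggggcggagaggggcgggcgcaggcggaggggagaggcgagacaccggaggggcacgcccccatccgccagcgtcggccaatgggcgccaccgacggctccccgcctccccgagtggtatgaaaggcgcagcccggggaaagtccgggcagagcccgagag
Mxd4: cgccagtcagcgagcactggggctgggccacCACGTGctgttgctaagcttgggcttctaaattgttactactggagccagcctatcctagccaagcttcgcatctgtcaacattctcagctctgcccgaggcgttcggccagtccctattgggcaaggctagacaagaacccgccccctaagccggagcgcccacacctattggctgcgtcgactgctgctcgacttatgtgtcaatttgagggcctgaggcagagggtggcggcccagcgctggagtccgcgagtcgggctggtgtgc
Gadd45b: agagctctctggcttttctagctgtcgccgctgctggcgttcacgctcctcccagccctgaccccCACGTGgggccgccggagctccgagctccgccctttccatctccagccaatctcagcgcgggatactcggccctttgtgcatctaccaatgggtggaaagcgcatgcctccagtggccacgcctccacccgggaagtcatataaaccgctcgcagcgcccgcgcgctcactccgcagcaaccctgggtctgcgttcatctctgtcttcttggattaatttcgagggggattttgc
RefSeq promoters were found for 11 of the 15 genes, in 12 windows. CACGTG stood in those of Mxd4 and Gadd45b and in 7.15% of all 32851 windows of 300 bases. TGACGTCA stood in that of Btg2 and in 1.79% of all. GTAAACA, a site read by FOXO proteins, was searched on both strands and stood in that of Hbp1 and in 3.65% of all. CACGTG and TGACGTCA read the same on both strands. These are matches of letters, not measured binding.

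Seen line by line, each resistant line departed from the parental mean in fewer genes than parental cultures 1, 4 and 5 did from their fellows. In R100, 77 genes (0.386%) were at least 2-fold from the parental mean and outside the parental range, 31 higher and 46 lower. There were 18 such genes in R500 (0.0903%), 38 in R1000 (0.191%) and 12 in R4000 (0.0602%). Each parental array set against the other 4 gave 88, 67, 19, 104 and 290 genes for replicates 1 to 5, against a reference of 4 arrays instead of 5. Of the 92 genes past this limit in any line, 0 went in opposite directions in different lines, and 48 passed it only in R100. R100 and R1000 shared 29 of these genes, which is 37.7% of those of R100 and 76.3% of those of R1000. R500 and R1000 shared 15, which is 83.3% of those of R500 and 39.5% of those of R1000.

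**Figure D2:**
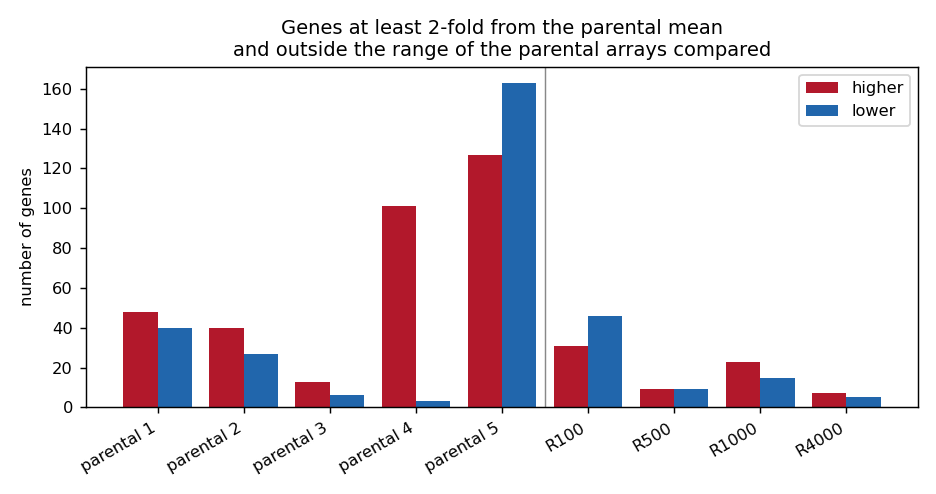
Number of genes at least 2-fold higher (red) or lower (blue) than the mean of the parental arrays and outside their range, for each of the 9 untreated arrays; a parental array was set against the other 4. R4000 has 12 such genes and R100 has 77, while parental replicate 5 has 290.

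R100 had the most genes past the 2-fold limit in a single line. Some of these, such as Ddit4, Nfkbie and Abcb1b, lay outside the parental range in every line on the same side. Genes set out by their pattern over the arrays, from Bcl2l1 to Mir181b-2, were named after their values had been seen. Bcl2l1, whose main product Bcl-xL blocks apoptosis, read 7.80, 7.55, 7.51, 7.88 and 7.80 in parental cells and 9.41, 7.58, 7.61 and 7.55 in R100, R500, R1000 and R4000. Only R100 stood apart, 1.70 above the parental mean on the log2 scale, and the other lines lay within the parental range. Casd1, a sialic acid acetyltransferase, read 8.80 to 9.56 in parental cells and 7.12, 8.62, 8.52 and 8.75 in the lines, so that R100 was again far from the rest. Igll1, a part of the surrogate light chain of early B cells, read 9.30 to 10.18 in parental cells and 11.03, 10.32, 10.37 and 9.80 in the lines. R100 was highest and R4000 within the parental range. Igll1 does not stand for its kind: of 19 early B genes 11 lay above 0 and 8 below, with a median of 0.08. In R100 alone the median difference of these genes was 0.12. Their mean was above all parental arrays in every line, narrowly in R500 and R4000, and highest in R100 at 9.17. Rag1, which cuts DNA to join antigen receptor genes, was among the 8 and differed by -0.48 (adjusted p = 0.756 by limma). A shift towards early B cells was not tested. S1pr1, the receptor that guides lymphocytes out of lymphoid tissue, read 9.73 to 10.25 against 8.52, 9.19, 9.18 and 9.58 (adjusted p = 0.187), and all lines were below the parental arrays.

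A second pattern, seen in single genes, joined R100 and R1000, which are not neighbours in the escalation. Over all genes R1000 was closer to R500 than to R100 (SD of the difference 0.16 against 0.19). Tnf, a cytokine that NF-kB induces, read 9.11, 9.52, 8.86, 8.80 and 8.69 in parental cells, 10.42 and 10.25 in R100 and R1000, and 9.51 and 9.39 in R500 and R4000. Its neighbour Lta, which encodes lymphotoxin alpha, read 6.66 to 7.48 in parental cells, 8.56 and 8.66 in R100 and R1000, and 7.56 and 7.17 in R500 and R4000. For both genes R100 and R1000 were more than 2-fold above the parental mean, and R4000 lay within the parental range. Pxdc1 read 7.15 to 7.81 in parental cells and 9.66, 8.42, 9.81 and 8.19 in R100, R500, R1000 and R4000. Ifi208, of the interferon-inducible p200 family, read 5.42 to 7.68 in parental cells and 8.96, 7.76, 8.82 and 7.59 in the lines. As a test of the mean over lines, none of these 4 genes passed (adjusted p = 0.282, 0.403, 0.142 and 0.414 in the order named). Of all genes, 14 passed the 2-fold limit in R100 and R1000 and in no other line, 8 higher and 6 lower. Mxd4, Ccng2 and Id2 are among them, although every line lay below all parental arrays in these genes.

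Genes that rose with the escalation dose were not found by the test, and single values of the last line were few. In R4000 and in no other line, 3 genes passed the limit. Among them Fos, an immediate early transcription factor, read 7.08 to 7.69 in parental cells and 7.50, 8.05, 7.73 and 8.49 in R100, R500, R1000 and R4000. Ubash3a, a regulator of receptor signalling in lymphocytes, read 9.04, 8.63, 7.51, 7.40 and 7.44 in parental cells and 8.58, 8.98, 8.79 and 9.14 in the lines. For Ubash3a the parental arrays were split, replicates 1 and 2 being close to the lines.

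Such split parental levels also marked most genes with the largest mean differences. In 8 genes all 4 lines differed at least 2-fold from the parental mean, 3 higher and 5 lower, and of these Bex6 alone passed the test. Rgs16, a regulator of G protein signalling, read 8.92, 8.57, 11.14, 11.77 and 11.96 in parental cells and 8.36, 8.30, 8.04 and 8.30 in the lines (difference -2.22, SE 0.65, adjusted p = 0.392). Uty, a Y-linked relative of the H3K27 demethylase Kdm6a, read 5.70, 5.45, 7.43, 7.61 and 6.39 in parental cells and 5.32, 5.39, 5.23 and 5.42 in the lines (adjusted p = 0.508). In both genes the lines were lowest, parental replicates 1 and 2 stood close to them, and replicates 3, 4 and 5 were higher. Rragb, a GTPase of the mTORC1 pathway, read 7.85, 7.31, 5.26, 6.06 and 5.68 in parental cells and 7.77, 7.85, 7.76 and 7.70 in the lines (adjusted p = 0.497), the reverse arrangement. Fabp5, a fatty acid binding protein, read 9.57, 8.79, 7.51, 7.99 and 7.71 in parental cells and 10.23, 10.04, 9.93 and 9.75 in the lines (3.19-fold, adjusted p = 0.141). All lines were above all parental arrays, of which replicates 1 and 2 were highest. Trf, which encodes transferrin, and Mturn were lower in all lines than on any parental array (adjusted p = 0.169 and 0.115). The labels name no batch that would set replicates 1 and 2 apart, and the part of this split in the results was not tested.

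The eighth of these genes was the microRNA gene Mir181b-2, whose probe set read 7.45, 6.74, 9.54, 8.79 and 8.78 in parental cells and 6.71, 7.13, 6.84 and 7.03 in the lines (adjusted p = 0.528). Parental replicates 1 and 2 overlapped the lines. The array reads the gene's transcript and not the mature RNA. The mature sequence is given with that of Mir181a-2 from the same cluster, since both share a seed (bases 2 to 8, in capitals) and so a set of possible targets. They lie at chr2:38853845-38853868 and chr2:38852741-38852763 on the plus strand (RefSeq, GRCm38.p6).
miR-181b-5p: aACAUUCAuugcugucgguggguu
miR-181a-5p: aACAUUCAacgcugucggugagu

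**Figure D3:**
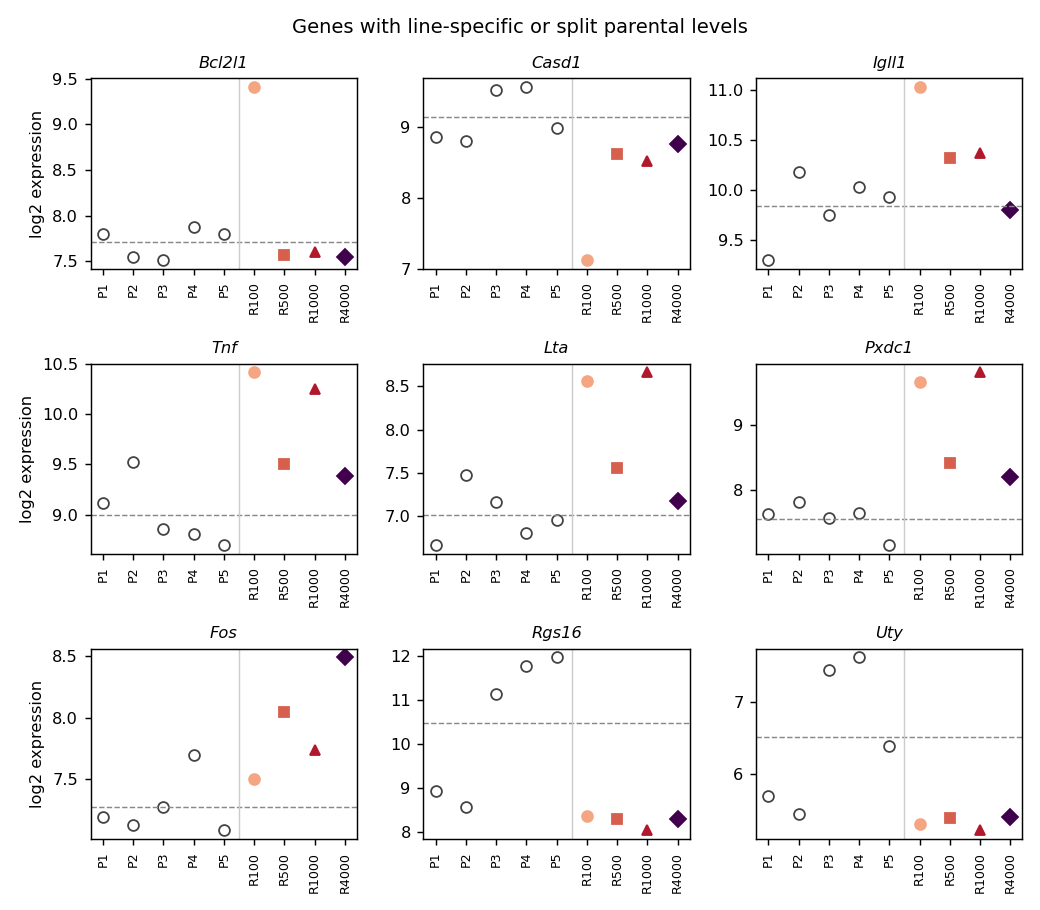
Log2 expression of 9 genes on parental arrays 1 to 5 (P1 to P5, open circles) and in the 4 untreated lines (filled symbols), each panel with its own scale and the parental mean as a dashed line. R100 alone stands out for Bcl2l1 at 9.41, R100 and R1000 stand together for Tnf, Lta and Pxdc1, and the parental arrays are split for Rgs16 and Uty.

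In the lists of aldehyde dehydrogenases, efflux pumps and crosslink repair no gene passed the test (limma). Of their 20, 19 and 35 genes, 2, 1 and 3 had an unadjusted p below 0.05, as did 1415 of all 19937 genes. In the checkpoint list H2ax alone passed the test. For the 20 aldehyde dehydrogenases measured the median difference was 0.03, with 2 genes above all parental arrays and 0 below, against 2.32% and 1.33% of all genes. Aldh1a1 and Aldh3a1, which can oxidise the drug's aldehyde intermediate, stood at 6.26 ± 0.10 and 6.62 ± 0.17 (SD, n = 5) in parental cells, and differed by -0.02 and -0.04. Aldh7a1, an enzyme of lysine breakdown, read 8.26 to 8.74 in parental cells and 9.13, 9.07, 8.95 and 9.18 in the lines (difference 0.61, SE 0.11, adjusted p = 0.0840), all lines being above all parental arrays. Among 19 efflux pumps the median was 0.07, and Abcb1b, a gene of P-glycoprotein, read 6.60 to 7.07 in parental cells against 7.92, 7.40, 7.84 and 7.38 (difference 0.73, SE 0.14, adjusted p = 0.115). Again all lines were above all parental arrays, R100 and R1000 being highest. Mgmt, which removes alkyl groups from guanine, stood at 6.94 ± 0.20 (SD, n = 5) in parental cells and differed by 0.03 (adjusted p = 0.983). Mgmt, Aldh1a1 and Aldh3a1 lay below the array medians of 7.28 to 7.44. Dim probes understate fold changes, so small differences there say little. Gsta4, a glutathione transferase, read 7.57 to 7.69 in parental cells and 7.04, 6.81, 6.82 and 7.42 in the lines (adjusted p = 0.120), with R4000 nearest to the parental arrays. For crosslink and recombination repair 28 of 35 genes lay above 0 with a median of 0.11, and 2 of the 35 had all lines above all parental arrays, near the share over all genes. Of 22 checkpoint genes 18 lay above 0 with a median of 0.18, while H2ax fell. For both lists the mean of every line lay within the parental range. It was 9.65 to 9.86 against 9.36 to 9.91 for crosslink repair, and 10.45 to 10.59 against 10.09 to 10.61 for checkpoint genes.

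Apoptosis and p53 genes showed no common direction. Among 29 p53 targets the median was 0.04, and the 3 that passed the test (Btg2, Trp53inp1 and Ddit4) all fell, where 0.0552% of all genes did. Mdm2 and Bbc3, a main inhibitor of p53 and a death gene that p53 induces, differed by 0.05 and -0.19 (adjusted p = 0.971 and 0.725). Trp53 and Cdkn1a were not analysed here. Bmf, a death gene of the BCL2 family, read 9.02 to 9.56 in parental cells and 8.45, 8.54, 8.58 and 8.58 in the lines (difference -0.77, SE 0.12, adjusted p = 0.0592). Its lines lay below all parental arrays, but the difference missed the threshold. The BCL2 family as a whole had a median of -0.01 over 17 genes, with 2 above and 2 below all parental arrays, against 2.32% and 1.33% of all genes. Bcl2 differed by -0.12.

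Lists tied to growth did not all lie on the same side. Of 31 genes of the Myc network and its targets, 25 lay above 0, with a median of 0.14, and 10 had all lines above all parental arrays, against 2.32% of all genes. Mxd4 was the only member called, and it fell. The mean of the list was 11.28 to 11.44 on the parental arrays and 11.42, 11.44, 11.46 and 11.48 in the lines, R100 and R500 being within the parental range. Among the others Nop58, a ribosome biogenesis factor, read 11.86 to 12.10 in parental cells and 12.26, 12.23, 12.34 and 12.28 in the lines (difference 0.26, adjusted p = 0.397), and Cad, which starts pyrimidine synthesis, differed by 0.32 (adjusted p = 0.462). Of 19 glycolysis genes 17 lay above 0, with a median of 0.14, and 3 had all lines above all parental arrays, against 2.32% of all genes. Ldha is counted both here and in the Myc list. Hk2, a hexokinase that Myc activates, read 9.50 to 10.04 against 10.22, 10.39, 10.43 and 10.34 (difference 0.55, SE 0.11, adjusted p = 0.115). Its lines were all above the parental arrays. For sterol synthesis 14 of 16 genes lay above 0 with a median of 0.22. The mean of the list was 10.282 to 10.685 on the parental arrays and 10.721, 10.66, 10.754 and 10.579 in the lines. R500 and R4000 were thus within the parental range. The list was led by Idi1, an enzyme of isoprenoid synthesis, at 10.71 to 11.41 in parental cells and 11.64, 11.68, 11.68 and 11.50 in the lines (adjusted p = 0.264). Its other probe set, which was not used in the test, differed by 0.27. The heat shock list had a median of 0.09, and 4 of its 12 genes had all lines above all parental arrays, against 2.32% of all genes. Hspd1 and Hspe1 are counted both here and in the Myc list. The mean of the heat shock list, 10.61 to 10.68 in the lines, lay within the parental range of 10.40 to 10.76. Of 29 ribosomal protein genes 21 lay below 0, with a median of -0.06, and 3 had all lines below all parental arrays, against 1.33% of all genes. The 13 housekeeping genes had a median of 0.01.

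The list of NF-kB genes had the lowest median of those plotted. Of 17 NF-kB genes 14 lay below 0, with a median of -0.35, and 2 had all lines below all parental arrays, against 1.33% of all genes. By line the list's median difference was -0.39 in R100, -0.32 in R500, -0.37 in R1000 and -0.21 in R4000. Nfkbie, an inhibitor of NF-kB that NF-kB itself induces, read 8.97 to 9.78 in parental cells and 8.13, 8.55, 8.47 and 8.79 in the lines (difference -0.87, SE 0.19, adjusted p = 0.145). All lines lay below the parental arrays, with R100 lowest. Birc3, an inhibitor of apoptosis that NF-kB induces, read 10.25 to 10.35 against 9.92, 10.02, 9.88 and 10.09 (adjusted p = 0.189). Tnf and Gadd45b, described above, stood on the other side. Of 27 cytokine receptors 20 lay below 0, with a median of -0.08, and Ifngr2 alone was called. For 24 interferon genes and 25 genes of B-cell receptor signalling, the medians were -0.05 and -0.04, with 10 and 11 genes above 0. Cxcr4, a chemokine receptor of B cells, read 12.47 to 13.34 in parental cells and 12.15, 12.34, 12.29 and 12.39 in the lines (difference -0.70, adjusted p = 0.226). Tgfbr2, a receptor for TGF-beta, and Cd2, an adhesion receptor that is also a T-cell marker, differed by -0.62 each (adjusted p = 0.115 and 0.120), with all lines below all parental arrays.

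B-cell identity genes were near the parental level in most cases. Pax5, Ebf1 and Tcf3, which set up the B lineage, differed by 0.05, -0.11 and -0.07 (adjusted p = 0.959, 0.889 and 0.925). Id2, which blocks the E proteins that Tcf3 encodes, read 10.59, 9.98, 10.54, 10.37 and 10.52 in parental cells and 9.10, 9.48, 9.40 and 9.83 in the lines (difference -0.95, SE 0.16, adjusted p = 0.0645). All lines lay below all parental arrays, R100 farthest and R4000 nearest, but the test was not passed. Gfi1 and Bcl6, a pair of transcriptional repressors, differed by 0.62 and 0.53 (adjusted p = 0.124 and 0.217), with all lines above all parental arrays. H2-Eb2, a class II antigen presentation gene, read 10.54 to 11.42 against 9.79, 10.03, 10.05 and 10.07 (difference -0.90, adjusted p = 0.0719). The mean of 9 class II genes was 10.32 to 11.10 in parental cells and 10.33, 10.50, 10.55 and 10.88 in the lines, within the parental range in every line. The Polycomb components Ezh2 and Mtf2 differed by 0.01 and 0.18 (adjusted p = 0.990 and 0.870).

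**Figure D4:**
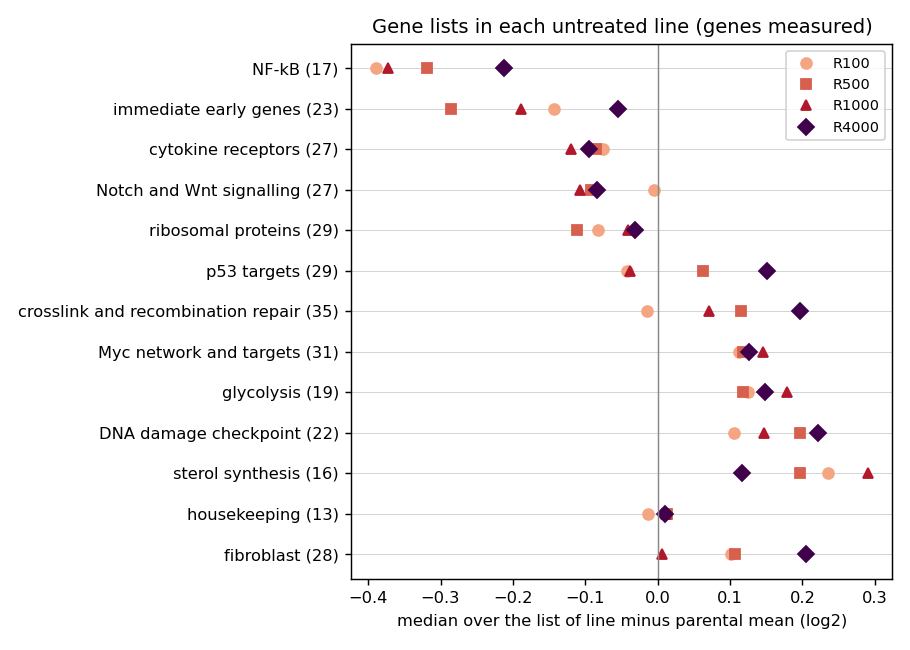
Median over each gene list of the difference between a line and the mean of the 5 parental arrays, in log2 units, for the 4 untreated lines; the number of genes measured stands in brackets. NF-kB genes lie lowest, between -0.39 and -0.21, and housekeeping genes lie near 0.

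The genes called without drug were then read in treated cells. After 24 h of mafosfamide, 129 genes separated R500, R1000 and R4000 from parental cells, 16 higher (0.0803%) and 113 lower (0.567%). This count was 130 without parental replicate 1, 730 without replicate 3, and 75, 27 and 41 without replicates 2, 4 and 5. Without R500, R1000 or R4000 it was 20, 16 or 27. Of the 15 genes called without drug, Gadd45b was called again, and 10 had the same sign. Since these genes were chosen for a large difference without drug, a smaller difference in other arrays says little by itself, and R100 has no treated array. Gadd45b read 10.48, 10.36, 10.07, 10.06 and 9.83 in treated parental cells and 11.47, 11.66 and 12.07 in treated R500, R1000 and R4000. No array overlapped, and the difference was 1.58 (SE 0.17, adjusted p = 0.00844 by limma). Unlike without drug, R4000 was the highest line.

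For the other 14 genes the difference was smaller in treated cells. Trp53inp1, Hbp1, Mxd4 and Ddit4 kept treated differences of -0.44, -0.29, -0.27 and -0.27. Bex6 read 9.81, 9.45, 10.04, 9.65 and 9.25 in treated parental cells and 9.22, 10.13 and 9.42 in the treated lines, and the difference was -0.05 (SE 0.22, adjusted p = 0.937). Btg2 read 11.62 to 12.03 in treated parental cells and 11.56, 11.37 and 11.70 in the treated lines (difference -0.25, SE 0.10, adjusted p = 0.287). Ccng2 read 9.01 to 9.63 against 9.19, 9.23 and 9.60 (difference 0.02, SE 0.15, adjusted p = 0.973). For Bex6, Btg2 and Ccng2 the treated groups overlapped, while the untreated groups did not. A test of the change in the difference used 17 arrays, with R100 on the untreated side only. After adjustment over all genes (limma) 0 of the 15 chosen genes passed, and 1 of all genes did. Of the 15, 13 had an unadjusted p below 0.05, against 8.9% of all genes. The untreated difference by which the 15 were chosen enters this test, so small p-values were likely in advance. The 13 therefore show no change by themselves. Without R100 (16 arrays) 0 of all genes passed, and with each line and each parental replicate number as a block 8 did, none of them among the 15. The change was -1.71 for Bex6 (SE 0.35, adjusted p = 0.146), 0.97 for Btg2 (SE 0.18, adjusted p = 0.146; 0.85 without R100, adjusted p = 0.150, and 0.0729 with the block) and 0.24 for Gadd45b (SE 0.22, adjusted p = 0.783). Feeder RNA differed between the treated groups: the mean of the 28 fibroblast genes was 8.35 to 9.92 on the treated parental arrays and 8.24, 8.22 and 7.97 in the treated lines, without overlap. Its part in the treated comparison was measured only through a fit with that mean as a term, in which 73 genes were called.

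**Figure D5:**
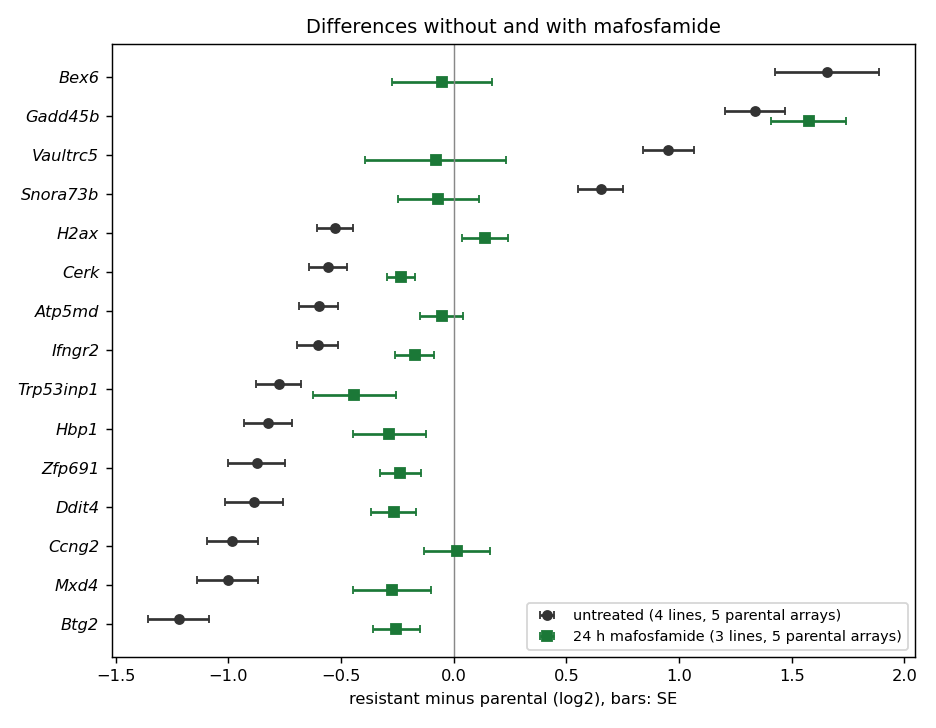
Resistant minus parental difference in log2 units, with SE, for the 15 genes called without drug: circles for untreated cells (4 lines, 5 parental arrays) and squares for cells after 24 h of 750 nM mafosfamide (3 lines, 5 parental arrays). Gadd45b stays at 1.34 and 1.58, while Bex6 moves from 1.66 to -0.05.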

How the data were processed

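Expression was measured on Affymetrix Mouse Gene ST 1.0 arrays. The authors made the deposited log2 values by robust multi-array averaging (justRMA of the affy package), which gives every array nearly the same distribution, so a change in the whole RNA content of a cell cannot be seen. Dim probes also understate fold changes. RMA, affy and the build mm9 are named in the submitters' processing notes. In bulk cultures, fewer cells of a type and less RNA per cell cannot be told apart.

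Of 34760 probe sets, 21640 carried 1 gene symbol in the platform annotation, 1321 several and 11799 none. For 954 genes more than 1 probe set was available, and the brightest on average was kept, which gave 19937 genes. Groups came from the sample titles. Array medians over the 30 arrays lay between 7.28 and 7.44. The number of arrays limits the precision.

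Comparisons were fitted with limma 3.58.1 in R 4.3.3 (lmFit and eBayes) on the deposited values, with p-values adjusted by Benjamini-Hochberg over all genes at a threshold of 0.05. The mean of the 4 lines and the slopes were tested on 9 arrays, the treated cells on 8, and the change of the difference on 17, or on 16 without R100. R500, R1000 and R4000 were each measured untreated and treated, and parental numbers 1 to 5 occur at 0 h and 24 h. Same-numbered parental arrays deviated together from their group means (correlation over genes 0.13 to 0.34), the arrays of a line less so (-0.01 to 0.27), and a fit of the change with line and number as blocks was added after the data had been seen. Fits were tested on simulated data. A single line was described by a 2-fold limit and the parental range. Gene lists are described by counts and medians.

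The members, lists and tests were chosen with earlier results of these data known. Genes were to be named if they were among the 15 largest rises or falls called without overlap, or the 8 largest called slopes, together with 23 fixed names, of which 21 were measured, and in each list the 6 or fewer genes of smallest p. Others are marked in the text. Alternatives left out each array, and changed the centring, the filter on low values, the choice of probe set, the variance model, the array weights, the arrays fitted, the scale of the dose and the fibroblast term.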

Additional observations from a re-analysis of the deposited data

Results flagged for a closer look

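In 124 groups of arrays (62 genes named above, parental arrays and lines apart), 7 had an array far from the others of its group. Chance gives about 1 in 20, but some of the genes, such as Bcl2l1 and Casd1, were named because of such values. The count therefore cannot be set against that rate. Bcl2l1 stood at 9.41 in R100 and at most at 7.61 in the other lines. Casd1 stood at 7.12 in R100 and at least at 8.52 in the others. H2-Eb2 stood at 9.79 in R100 and at least at 10.03 in the others. In R4000, Snora73b stood at 11.64 with the next line at 11.72, and Zfp691 at 9.02 with the next at 8.82. Atp5md stood at 12.26 in R500 with the next line at 12.43. Pes1, a ribosome biogenesis factor, stood at 11.10 on parental replicate 5 with the next array at 11.27.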

How the results depend on the processing

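No paired analysis was possible because untreated lines and parental cells, or treated lines and parental cells, share fewer than 2 replicate numbers; only the change with treatment could be paired. The count for that change, 1 over all genes, was 0 without R100 and 8 with the replicate block (both added after the data had been seen); the 15 genes stayed uncalled in each. The count of 15 genes for untreated lines against parental cells ranged from 0 to 24 when each array was left out in turn. It was 5 after centring arrays on their medians (2 higher, 3 lower), 29 with an intensity trend and robust prior, 100 with array weights, 206 with all 30 arrays fitted (100 higher and 106 lower, 14 of the 15 among them), and 9 with the fibroblast mean as a covariate (7 of the 15 among them). With all 30 arrays the spread was estimated from more arrays; the cause of the other moves was not tested. None of the 15 genes changed direction under any alternative run. Leaving out or weighting arrays could not have reversed them, since their lines and parental arrays did not overlap. Each lost its call under at least 3 of 17 alternatives, and Btg2 and Gadd45b kept it under 14. The slope over the order of resistance gave 0 genes under every alternative run. The slope among the lines gave 0 to 1 genes when each array was left out and 1 with all 30 arrays fitted. The treated comparison ranged from 16 to 730 genes when each array was left out, 730 being without parental replicate 3 at 24 h and 16 without R1000; it gave 77 after median centring and 73 with the fibroblast covariate. Among the named genes the difference of Bcl2l1 ranged from -0.13 (without R100) to 0.49 (without R4000). Median centring moved the median of all genes to 0.03 from -0.01. Atp5md differed between probe sets in size only.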

Other observations

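The 13120 probe sets without a single gene symbol were fitted separately with limma, and 0 passed, with 758 at an unadjusted p below 0.05 and a smallest adjusted p of 0.0712.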
